A study of Mus musculus with 9 samples.

Results

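Of the 10 genes described here, 6 encode matrix metalloproteinases and 4 encode the proteins that inhibit them, and their RNA was followed in mouse skin across 9 libraries. The members were found by symbol, Mmp2, Mmp3, Mmp9, Mmp11, Mmp14, Mmp27, Timp1, Timp2, Timp3 and Timp4, and all 10 were among the 55382 genes of the table. The NORMAL group was skin of mice without the fibrosis model, injected with PBS, the solvent of bleomycin. The BLM group was skin of mice in which scleroderma was modeled with bleomycin, a DNA-cleaving drug that causes fibrosis, injected for 28 days beneath the shaved skin of the back in portions of 100 µL at 1 mg/mL. The EXO group carried the same bleomycin model followed by 15 µg of exosomes, which are vesicles shed by bone marrow mesenchymal stem cells, with 7 days of treatment. The BLM mice received PBS in that period according to the protocol, while their labels give the treatment as none. The mice were female C57BL/6 according to the methods, their age is not given in the sources used here, and each group had 3 libraries. Libraries are called by group and number, such as BLM1, where 3 stands for the library whose title has no number. Nothing in the sources used here states that each library came from its own mouse, so p-values only reflect how far these samples vary, which may be technical.

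Matrix metalloproteinases are zinc-dependent enzymes that cut collagen and other proteins outside the cell, and they are made as inactive precursors. Tissue inhibitors of metalloproteinases (TIMPs) sit in the active site and block it. The amount of collagen that a fibrotic skin keeps is known to depend on its synthesis and on this balance of proteases and inhibitors. MMP14 is anchored in the cell membrane, and together with TIMP2 it binds and activates the precursor of MMP2, so TIMP2 takes part in activation as well as in inhibition.

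Levels are given in FPKM, a unit that divides the fragments of a gene by its length and by the size of the library. A gene was tested where it reached 1 FPKM in at least 3 libraries, and 7 of the 10 genes did so, as did 14254 genes in all. Mmp9, Mmp27 and Timp4 did not and are given as levels only. The table holds no counts. Judged by the commonest spacing between the low values of pseudogenes, the libraries held an estimated 10.4 M to 18.7 M fragments, and a step of 0.5 of that size was 9.9% to 95.2% as frequent, so the depth may be 2 times higher. Skin markers were present in each library. Krt14, the keratin of basal epidermis, lay between 238.88 and 2689.92 FPKM, and the summed level of 7 fibroblast genes between 58.62 and 358.64 FPKM. The libraries differed in makeup, with mitochondrially encoded transcripts at 18.7% to 50.9% of FPKM and 7 skeletal muscle genes at a summed 4737.31 to 47264.88 FPKM. In bulk skin, fewer cells of a type and less RNA per cell cannot be told apart.

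Timp2 and Timp3 stood above the proteases in these skins, whereas Timp1 was below Mmp2, Mmp14 and Mmp3 by group mean and Timp4 was the lowest member in every group. Timp2 and Timp3 were the most abundant members in every group, and together they made up 83.8% to 98.2% of the summed Timp level in a library. In every group both lay above every protease of the same library. In NORMAL the order of group means ran Timp2, Timp3, Mmp2, Mmp11, Mmp14, Mmp3, Timp1, Mmp27, Mmp9 and Timp4, and the ranges of neighbors overlapped except between Mmp3 and Timp1 and between Mmp9 and Timp4. Among the proteases, Mmp2 and Mmp14 supplied 45.7% to 78.1% of the summed Mmp level. In BLM the order was Timp2, Timp3, Mmp14, Mmp2, Mmp3, Timp1, Mmp11, Mmp9, Mmp27 and Timp4, with no overlap between Timp3 and Mmp14 or between Timp1 and Mmp11. In EXO Timp3 came before Timp2 with overlapping ranges, and only the step from Timp2 to Mmp14 was free of overlap. The mean of Timp2 over the 9 libraries was higher than that of 92.2% of tested genes, and that of Timp1 was higher than 43.2%.

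**Figure D1:**
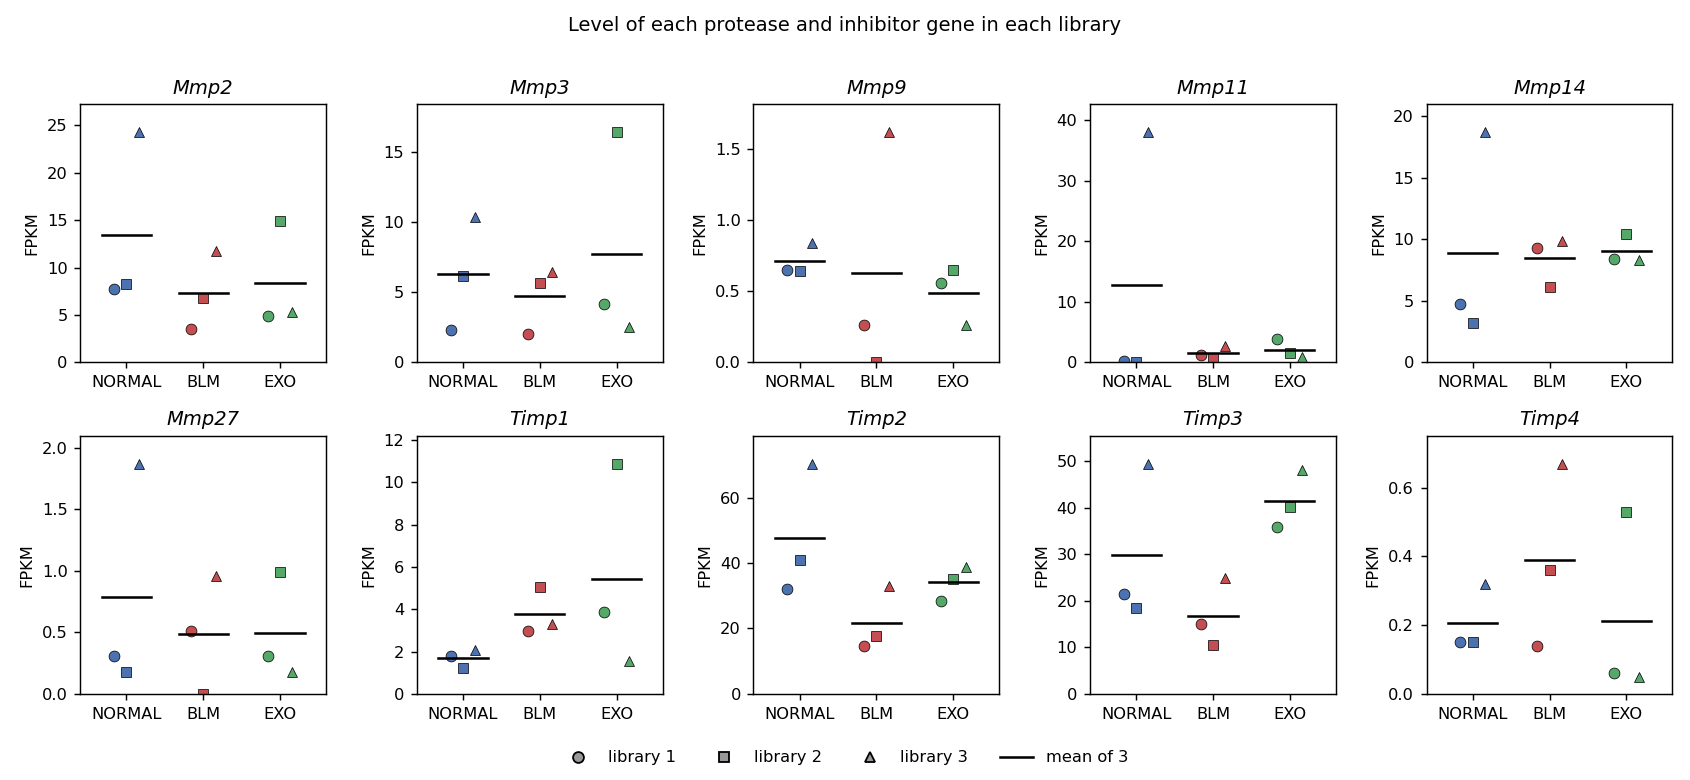
FPKM of each of the 10 genes (vertical axis, each panel from 0 on its own scale) in NORMAL, BLM and EXO, with 1 point per library, the shape giving the library number, and a line at the mean of 3. The 3 EXO points of Timp3 (35.82 to 48.15) lie above the 3 BLM points (10.58 to 24.87), and the NORMAL mean of Mmp11 rests on 38.03 FPKM in NORMAL3.

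No member passed an adjusted p of 0.05 in any of the 3 comparisons (limma, Benjamini-Hochberg over all genes tested). In simulated data this threshold found 1.6% of log2 changes of 1 and 37.2% of changes of 2, so such changes would mostly be missed. At that threshold 0.014% of all tested genes were called for BLM against NORMAL, 0.014% for EXO against BLM and 0% for EXO against NORMAL. Over the alternatives the calls among all genes ranged from 0 to 131, from 0 to 97 and from 0 to 3, with no member among them. The study called genes at an unadjusted p below 0.05 and more than 1 on the log2 scale. At these thresholds 1 of 7 members was called for BLM against NORMAL, where 5.9% of all tested genes were, namely Timp2, which was lower. For EXO against BLM 1 of 7 was called, where 5.3% of all tested genes were, namely Timp3, which was higher. For EXO against NORMAL 0 of 7 were called by limma, where 1.71% of all tested genes were, and 0 of 7 had an unadjusted p below 0.05. By direction, 2.88% of tested genes were called higher and 3.02% lower for BLM against NORMAL, 3.03% higher and 2.27% lower for EXO against BLM, and 1.32% higher and 0.393% lower for EXO against NORMAL. An unadjusted p below 0.05 (limma) was reached by 1, 1 and 0 members in the 3 comparisons and by 7.37%, 6.84% and 2.33% of all tested genes. With library number as a block, a pairing inferred from these same data, it was reached by 2, 2 and 0 members, Timp2 and Timp3 in both of the first comparisons. The share of all tested genes with such a p was not taken for the block. At the thresholds of the study the block raised that share to 8.43%, 7.7% and 3.44%, so the added members are not read as a result. Groups without overlap were seen for 1 member in BLM against NORMAL (10.4% of all tested genes, 2.87% higher and 7.52% lower), 1 in EXO against BLM (14%, 11.4% higher and 2.66% lower) and 0 in EXO against NORMAL (5.57%, 4.58% higher and 0.989% lower). The median log2 change of the 7 members was -0.62, 0.25 and 0.07 in the 3 comparisons in that order, beside -0.03, 0.22 and 0.17 over all tested genes. All 7 were higher in EXO than in BLM, as were 9805 of the 14254 tested genes, but Mmp2 and Mmp14 turned lower after quantile normalization and, with Timp1, after median-ratio scaling.

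**Figure D2:**
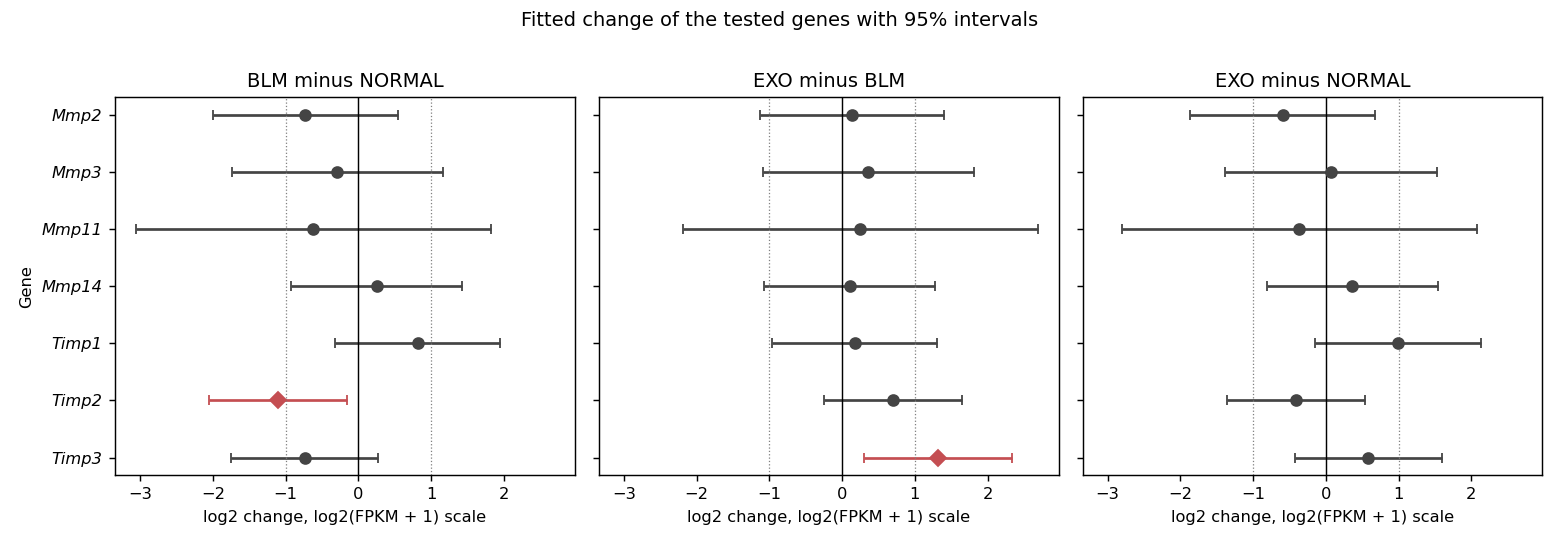
Fitted log2 change (horizontal axis, log2(FPKM + 1) scale) with its 95% interval for the 7 tested genes, in the 3 comparisons. Red diamonds mark a change past the thresholds of the study, gray circles the others, and dotted lines a log2 change of 1 in either direction. Timp2 at -1.11 in BLM minus NORMAL and Timp3 at 1.32 in EXO minus BLM are the 2 diamonds.

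Timp3 encodes the inhibitor that stays bound to the matrix and that blocks several ADAM and ADAMTS proteases besides the metalloproteinases. Its level was 21.53, 18.54 and 49.47 FPKM in NORMAL1 to NORMAL3, 15.00, 10.58 and 24.87 FPKM in BLM1 to BLM3, and 35.82, 40.20 and 48.15 FPKM in EXO1 to EXO3. Every EXO library was above every BLM library, a pattern that 11.4% of all tested genes shared, while NORMAL3 lay at the level of EXO and the other NORMAL libraries near that of BLM. The group means were 29.8 ± 17.1, 16.8 ± 7.32 and 41.4 ± 6.25 FPKM (SD, n = 3 each), so the EXO mean was 2.46-fold the BLM mean. On the log2(FPKM + 1) scale the difference was 1.32 (SE 0.46, 95% interval 0.31 to 2.33; limma, unadjusted p = 0.0152, adjusted p = 0.568, or 0.129 with library number as a block), beside a shift of 0.22 in the median gene. Against NORMAL, BLM was lower in 3 of 3 pairs of libraries with the same number, at -0.74 (95% interval -1.75 to 0.27; limma, unadjusted p = 0.137, or 0.0438 with the block, adjusted p = 0.803 or 0.314) and EXO at 0.58 (-0.43 to 1.59; limma, adjusted p = 0.997). Here and below, no share of all tested genes was taken for such counts of pairs, so they are descriptions only. The difference between EXO and BLM was positive in 22 of 22 alternatives and past the thresholds of the study in 20. Alternatives that change only the filter, the variance model, the block or the libraries of the group not compared cannot move this estimate. The count of directions therefore holds outcomes that were fixed in advance. It missed them without BLM2 (log2 change 1.05, limma, unadjusted p = 0.0515) and without all libraries numbered 2 (1.06, 0.0756).

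Timp3 (ENSMUSG00000020044) lies on chromosome 10 from 86300372 to 86349506 in GRCm38, on the forward strand and wholly inside Syn3, a synapsin gene of the opposite strand. Syn3 was listed at 6.34 FPKM in BLM2 and at 0 to 0.19 FPKM in the other libraries, and BLM2 was the library with the lowest Timp3. Whether fragments were divided between these genes was not tested, and the strand setting of the quantification is not given in the sources used here. The summed level of 5 keratinocyte genes was 4504.67 to 8169.31 FPKM in EXO, 740.91 to 3318.41 FPKM in BLM and 699.10 to 5882.84 FPKM in NORMAL, thus without overlap between EXO and BLM. Of the 5 genes, Krt5 and Krt14 were each separated between these groups, while Krt1, Krt10 and Dsp overlapped. Hair matrix and shaft genes went the other way, at a summed 2.54 to 7.65 FPKM in EXO and 74.87 to 430.85 FPKM in BLM, and 6 of 6 tested were lower at the thresholds of the study (median log2 change -3.09). Fibroblast genes summed to 58.62 to 257.33 FPKM in EXO and 94.55 to 358.64 FPKM in BLM. The part of these cell types in the Timp3 difference was not tested.

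Timp2 encodes the inhibitor that also serves MMP14 in the activation of MMP2. It stood at 31.90, 40.98 and 70.37 FPKM in NORMAL1 to NORMAL3, at 14.69, 17.60 and 32.91 FPKM in BLM1 to BLM3, and at 28.39, 35.11 and 38.85 FPKM in EXO1 to EXO3. BLM1 and BLM2 were below every NORMAL and EXO library, and BLM3 just above NORMAL1. The means were 47.8 ± 20.1, 21.7 ± 9.79 and 34.1 ± 5.30 FPKM (SD, n = 3 each), so the NORMAL mean was 2.20-fold the BLM mean. The difference of BLM from NORMAL was -1.11 on the log2 scale (SE 0.43, 95% interval -2.05 to -0.16; limma, unadjusted p = 0.0263, adjusted p = 0.644, or 0.166 with library number as a block). EXO was above BLM in 3 of 3 pairs of libraries with the same number, by 0.70 (95% interval -0.25 to 1.65; limma, unadjusted p = 0.133, or 0.0415 with the block, adjusted p = 0.798 or 0.306). EXO differed from NORMAL by -0.41 (-1.36 to 0.54; limma, adjusted p = 0.997). BLM was lower than NORMAL in 22 of 22 alternatives, some of which cannot move the estimate, and past the thresholds of the study in 17. The call was lost after quantile normalization (log2 change -0.83, limma, unadjusted p = 0.0591), without NORMAL3 (-0.79, 0.103), BLM1 (-0.88, 0.108) or BLM2 (-1.002, 0.0587), and without all libraries numbered 2 (-1.07, 0.0955). Skeletal muscle genes, summed, were at 6607.09 to 47264.88 FPKM in NORMAL and 4737.31 to 8201.94 FPKM in BLM, and their part in this difference was not tested. Timp2 lies on chromosome 11 from 118301069 to 118355740 (GRCm38), overlapping Cep295nl of the same strand, which was listed at 0 to 0.90 FPKM.

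The bases before the start of these inhibitor genes are shown because Timp2 and Timp3 were the members that reached the thresholds of the study. Each line gives the 250 bases before the start annotated by RefSeq (GRCm38.p6), chr11:118355412-118355661 on the reverse strand for Timp2 and chr10:86300162-86300411 on the forward strand for Timp3. The gene spans of GENCODE M21 begin earlier than these RefSeq starts. That of Timp2 begins at 118355740, before the whole window, and that of Timp3 at 86300372, within the window. Both marked motifs thus lie inside the GENCODE spans and may be transcribed. Capitals mark the SP1 motif GGGCGG or its reverse complement CCGCCC.
Timp2: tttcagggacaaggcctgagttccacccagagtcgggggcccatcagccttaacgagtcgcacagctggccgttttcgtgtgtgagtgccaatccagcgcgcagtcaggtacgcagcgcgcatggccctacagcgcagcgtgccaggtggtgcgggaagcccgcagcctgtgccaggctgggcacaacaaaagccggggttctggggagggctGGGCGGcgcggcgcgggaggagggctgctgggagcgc
Timp3: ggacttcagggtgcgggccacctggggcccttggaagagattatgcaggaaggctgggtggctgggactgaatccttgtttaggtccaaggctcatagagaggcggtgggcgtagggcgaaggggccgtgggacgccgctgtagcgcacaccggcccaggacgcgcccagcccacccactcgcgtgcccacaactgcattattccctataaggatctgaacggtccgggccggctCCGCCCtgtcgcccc
Each held this motif once, 37 bases before the start in Timp2 and 15 bases before it in Timp3, and 32.7% of all 32851 windows of this length held at least 1. Their GC content was 68.0% and 65.6%.

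Timp1 encodes the inhibitor that injured and inflamed tissue is known to induce. Its level was 1.77, 1.22 and 2.06 FPKM in NORMAL, 2.96, 5.07 and 3.29 FPKM in BLM, and 3.88, 10.88 and 1.56 FPKM in EXO, in the order of the library numbers. Each BLM library was above each NORMAL library, as held for 2.87% of all tested genes, and EXO spanned both groups. The means were 1.68 ± 0.427 and 3.77 ± 1.13 FPKM in NORMAL and BLM and 5.44 ± 4.85 FPKM in EXO (SD, n = 3 each). The log2 difference of BLM from NORMAL was 0.82 (95% interval -0.32 to 1.95; limma, adjusted p = 0.811), positive in 21 of 21 alternatives, some of which cannot move the estimate. That of EXO from NORMAL was 0.99 (-0.14 to 2.13; limma, adjusted p = 0.997), and 1.52 without EXO3 (limma, unadjusted p = 0.0112). EXO2, the highest library for Timp1, also had the highest summed level of 6 macrophage genes, 59.27 FPKM against 12.08 to 53.76 FPKM elsewhere. Only Cd68 and Adgre1 of these peaked in EXO2, while Csf1r and Cd163 peaked in NORMAL3 and Mrc1 and Fcgr1 in NORMAL2. The sum of 5 mast cell genes was highest in EXO2 too, 50.25 FPKM against at most 34.76 FPKM elsewhere, although Kit peaked in BLM3. The part of macrophages or mast cells was not tested. Timp1 lies on chromosome X from 20870166 to 20874735 (GRCm38) inside Syn1 of the opposite strand, which was listed at 0.10 to 0.60 FPKM.

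Timp4, an inhibitor with a narrower distribution over tissues, lay between 0.05 and 0.67 FPKM, an estimated 3 to 42 fragments a library. Its highest library was BLM3 and its lowest EXO3, and the ranges of all groups overlapped. Like Timp1 and Timp3 it lies inside a synapsin gene of the opposite strand, here Syn2 on chromosome 6, listed at 0 to 0.30 FPKM.

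Mmp2 encodes gelatinase A, which cuts denatured collagen and basement membrane. Its level was 7.74, 8.27 and 24.28 FPKM in NORMAL, 3.53, 6.77 and 11.74 FPKM in BLM, and 4.91, 14.88 and 5.34 FPKM in EXO. All groups overlapped, NORMAL3 was the highest of the 9 libraries, and BLM was below NORMAL in 3 of 3 pairs of libraries with the same number. BLM differed from NORMAL by -0.73 (95% interval -2.001 to 0.54; limma, adjusted p = 0.874) and EXO from BLM by 0.14 (-1.13 to 1.41; limma, adjusted p = 0.986). Mmp14, the membrane-bound collagenase that activates MMP2, was at 4.71, 3.17 and 18.70 FPKM in NORMAL, 9.27, 6.16 and 9.88 FPKM in BLM, and 8.39, 10.43 and 8.28 FPKM in EXO. Its means were nearly level, 8.86 ± 8.56, 8.44 ± 2.00 and 9.03 ± 1.21 FPKM (SD, n = 3 each), with a far wider spread in NORMAL. The log2 difference was 0.26 for BLM against NORMAL (95% interval -0.92 to 1.43; limma, adjusted p = 0.980) and 0.11 for EXO against BLM (-1.07 to 1.28; limma, adjusted p = 0.988). Without NORMAL3 the difference of EXO from NORMAL was 1.03 (limma, unadjusted p = 0.0264) in place of 0.36, and without NORMAL2 it was -0.087.

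Mmp9 encodes gelatinase B, an enzyme known from neutrophils, macrophages and migrating keratinocytes. It was listed at 0.65, 0.64 and 0.84 FPKM in NORMAL, 0.26, 0 and 1.62 FPKM in BLM, and 0.56, 0.65 and 0.26 FPKM in EXO. The BLM libraries thus held both the lowest and the highest value, and an estimated 0 to 55 fragments a library stood behind these levels. The summed level of 7 neutrophil genes was 0 to 2.03 FPKM in NORMAL, 1.51 to 6.36 FPKM in BLM and 0.86 to 1.90 FPKM in EXO, with its highest value, like that of Mmp9, in BLM3. Only 1 of the 7 passed the filter, S100a8, and the BLM3 sum was mostly S100a8 (4.93 FPKM) and Camp (1.25 FPKM). Ly6g, Mpo, Elane and Retnlg were at 0 in BLM3, and S100a9 was at 0.18 FPKM there and highest in NORMAL3 (1.07 FPKM). The part of neutrophils was not tested.

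Mmp11, stromelysin-3, is a protease of connective tissue cells that is activated inside the cell by furin, and it was the most uneven member. It stood at 0.20, 0.09 and 38.03 FPKM in NORMAL1 to NORMAL3, at 1.15, 0.81 and 2.64 FPKM in BLM, and at 3.89, 1.57 and 0.90 FPKM in EXO. NORMAL3 lay 9.78-fold above the highest other library, a gap of at least 8-fold that only 6 of 14254 tested genes showed for NORMAL3, while NORMAL1 and NORMAL2 were the lowest libraries of all 9. The spread of Mmp11 within NORMAL was larger than that of 99.3% of tested genes. With all libraries BLM differed from NORMAL by -0.62 on the log2 scale (95% interval -3.06 to 1.82; limma, adjusted p = 0.973) and EXO from NORMAL by -0.37 (-2.81 to 2.07; limma, adjusted p = 0.997). Without NORMAL3 these turned to 1.08 (limma, unadjusted p = 0.0387, adjusted p = 0.284) and 1.33 (0.0147, 0.441), a setting in which 14.8% and 9.91% of all genes were past the thresholds of the study, so the direction turned on 1 library. It also turned with a pseudocount of 0.1 in place of 1, to 0.17 and 0.54.

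NORMAL3 also stood apart from NORMAL1 and NORMAL2 in the other members and in the makeup of the skin. All 10 members were higher in NORMAL3 than in NORMAL1 and NORMAL2, as were 62.5% of all tested genes. The summed level of 6 genes of hair matrix and shaft was 120.48 FPKM in NORMAL3 against 2.27 and 1.10 FPKM in NORMAL1 and NORMAL2, that of keratinocyte genes 5882.84 against 2952.46 and 699.10 FPKM, and that of 5 adipocyte genes 379.85 against 79.91 and 103.63 FPKM. Skeletal muscle genes went the other way, at 6607.09 against 47264.88 and 32000.95 FPKM. The part of these tissues in the member levels was not tested. Mmp11 (ENSMUSG00000000901) lies on chromosome 10 from 75923222 to 75936496 (GRCm38), reverse strand, and this span overlaps Chchd10 of the opposite strand, which was at 245.59, 258.61 and 49.28 FPKM in NORMAL1 to NORMAL3.

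The window before the start of Mmp11 is shown for the gene that varied most, as 250 bases of the reverse strand at chr10:75932503-75932752 (GRCm38.p6, RefSeq). Capitals mark the SP1 motif, found here 52 and 19 bases before the start.
Mmp11: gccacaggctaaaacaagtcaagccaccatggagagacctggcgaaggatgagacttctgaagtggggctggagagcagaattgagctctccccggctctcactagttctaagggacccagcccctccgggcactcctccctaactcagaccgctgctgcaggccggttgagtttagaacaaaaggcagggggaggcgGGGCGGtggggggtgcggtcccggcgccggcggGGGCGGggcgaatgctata
This RefSeq start lies outside Chchd10, which begins at 75933130, while the GENCODE span of Mmp11 reaches into that neighbor. Which transcripts of Mmp11 do so was not examined.

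**Figure D3:**
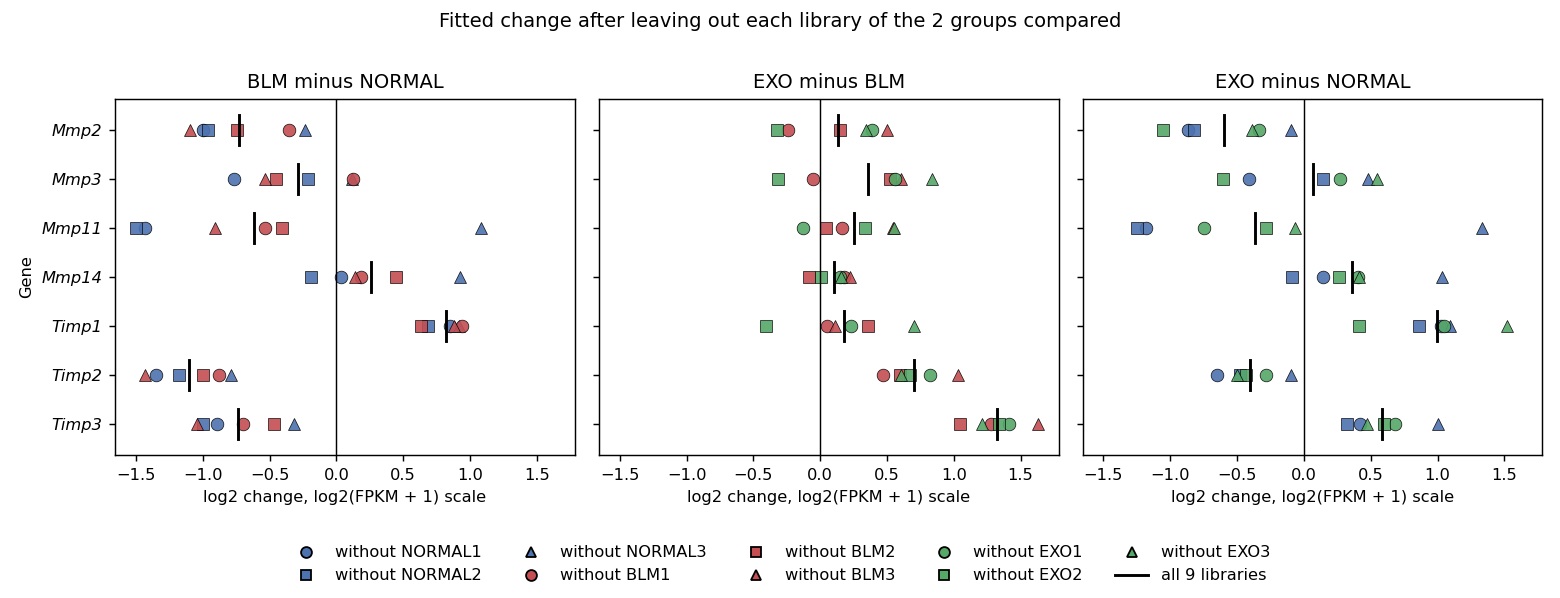
Fitted log2 change of the 7 tested genes (horizontal axis, log2(FPKM + 1) scale) after leaving out each library of the 2 groups compared, the color giving the group and the shape the number of the library left out, with a black tick for all 9 libraries. Mmp11 moves from -0.62 to 1.08 without NORMAL3 in BLM minus NORMAL, while Timp3 stays between 1.05 and 1.63 in EXO minus BLM.

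Mmp3 and Mmp27 belong to a cluster of metalloproteinase genes on chromosome 9 of the mouse. Mmp3 encodes stromelysin-1, which cuts many matrix proteins and activates other metalloproteinases. Of 10 genes in the cluster, Mmp3 was the only one at 1 FPKM or more in all 9 libraries. Mmp27 and Mmp12, the macrophage elastase, reached 1 FPKM in 1 library each, and Mmp13, Mmp1a, Mmp10 and Mmp8 reached it in none, with 0.35 FPKM as the highest value. Mmp1b, Mmp20 and Mmp7 were listed at 0 in all 9 libraries. Mmp3 stood at 2.34, 6.18 and 10.42 FPKM in NORMAL, 2.02, 5.69 and 6.46 FPKM in BLM, and 4.17, 16.45 and 2.52 FPKM in EXO. The groups overlapped throughout, BLM was below NORMAL in 3 of 3 pairs with the same number, and in BLM and NORMAL library 1 was the lowest and library 3 the highest. BLM differed from NORMAL by -0.29 on the log2 scale (95% interval -1.74 to 1.16; limma, adjusted p = 0.980) and EXO from BLM by 0.36 (-1.09 to 1.81; limma, adjusted p = 0.946). Mmp27, a metalloproteinase of little-known function, was listed at 0.31, 0.18 and 1.87 FPKM in NORMAL, 0.51, 0 and 0.96 FPKM in BLM, and 0.31, 0.99 and 0.18 FPKM in EXO, an estimated 0 to 38 fragments a library.

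The windows before the starts of Mmp3 and Mmp27 are set side by side as those of the 2 members in this cluster. Mmp1a, Mmp10 and Mmp8 lie between them. They are the 250 bases at chr9:7445572-7445821 for Mmp3 and chr9:7571146-7571395 for Mmp27, both forward strand (GRCm38.p6, RefSeq). Capitals mark the AP-1 motif (TGAGTCA or TGACTCA) and the TATA motif (TATAAA).
Mmp3: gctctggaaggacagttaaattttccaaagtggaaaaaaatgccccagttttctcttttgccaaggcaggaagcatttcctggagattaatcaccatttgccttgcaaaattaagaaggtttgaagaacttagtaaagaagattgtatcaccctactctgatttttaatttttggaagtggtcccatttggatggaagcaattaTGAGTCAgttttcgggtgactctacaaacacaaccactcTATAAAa
Mmp27: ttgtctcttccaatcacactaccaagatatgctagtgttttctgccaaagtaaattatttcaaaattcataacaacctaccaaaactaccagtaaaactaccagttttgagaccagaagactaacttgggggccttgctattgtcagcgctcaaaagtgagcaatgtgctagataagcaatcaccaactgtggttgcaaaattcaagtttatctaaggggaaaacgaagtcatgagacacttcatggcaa
Mmp3 held 1 AP-1 match 46 bases before the start and 1 TATA match 7 bases before it, and Mmp27 held no match to these letters on either strand. Over all 32851 windows, 4.46% held an AP-1 match and 12.4% a TATA match. Windows for 8 of the 10 members were found, and among them no other member held an AP-1 or TATA match.

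**Figure D4:**
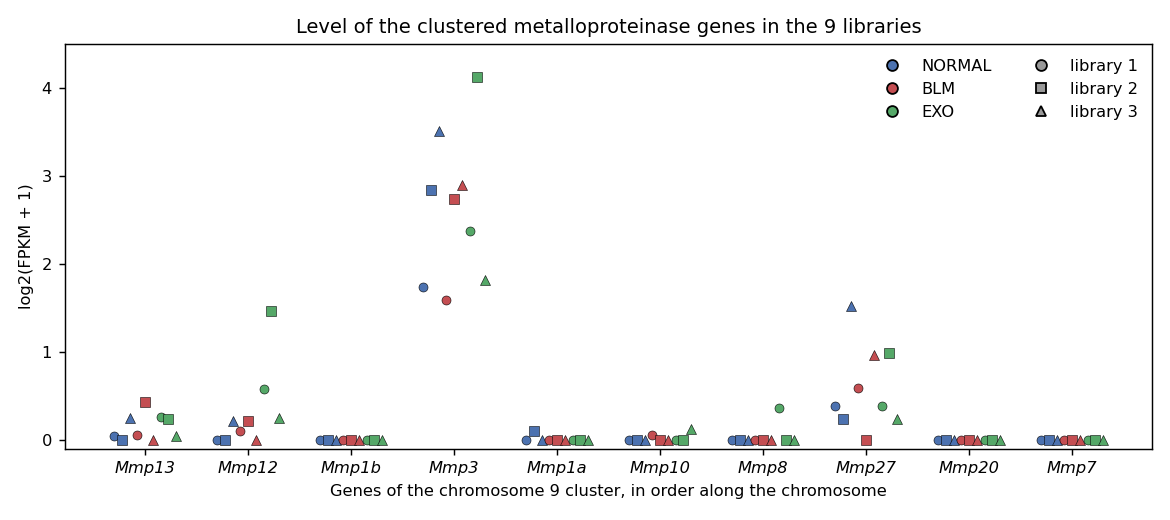
Level on the log2(FPKM + 1) scale (vertical axis) of the 10 metalloproteinase genes of the chromosome 9 cluster, in their order along the chromosome (not to scale), with 1 point per library, colored by group and shaped by library number. Mmp3 lies between 2.02 and 16.45 FPKM in every library, while the other genes stay at or below 1.87 FPKM.

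The ratio of protease to inhibitor was then taken within each library, where the total that FPKM are divided by cancels. Since 3 libraries against 3 cannot give an exact permutation p below 0.10, these ratios are described and not tested. Of 18 comparisons of 6 ratios between groups, 3 showed no overlap. For the levels of single genes this held for 10.4%, 14% and 5.57% of all tested genes in the 3 comparisons. No such share was taken over ratios of other genes, so the count of 3 is not read as a result. The Mmp14/Timp2 ratio was 0.148, 0.0774 and 0.266 in the NORMAL libraries, 0.631, 0.350 and 0.300 in the BLM libraries, and 0.296, 0.297 and 0.213 in the EXO libraries. BLM was above NORMAL in each library, and above EXO too, the last by a thin margin of 0.3002 against 0.2971. The means were 0.164 ± 0.0952, 0.427 ± 0.178 and 0.269 ± 0.0480 (SD, n = 3 each). The part of Timp2 in this ratio is the same set of values that was lower in BLM above.

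The Mmp9/Timp1 ratio, which rests on the few fragments of Mmp9, was 0.367, 0.525 and 0.408 in NORMAL and 0.144, 0.0597 and 0.167 in EXO, with no overlap. In BLM it was 0.0878, 0 and 0.492. The ratios of Mmp2 to Timp2, Mmp2 to Timp3 and Mmp3 to Timp1 overlapped in every comparison. Mmp3/Timp1 was 1.32, 5.07 and 5.06 in NORMAL and 0.682 to 1.96 in BLM and EXO together. The summed Mmp level over the summed Timp level was 0.288, 0.304 and 0.770 in the NORMAL libraries, 0.510, 0.578 and 0.539 in the BLM libraries, and 0.326, 0.519 and 0.197 in the EXO libraries. NORMAL3 was the highest library there, and with Mmp11 left out of the sum its ratio was 0.459, below the BLM range of 0.475 to 0.554.

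**Figure D5:**
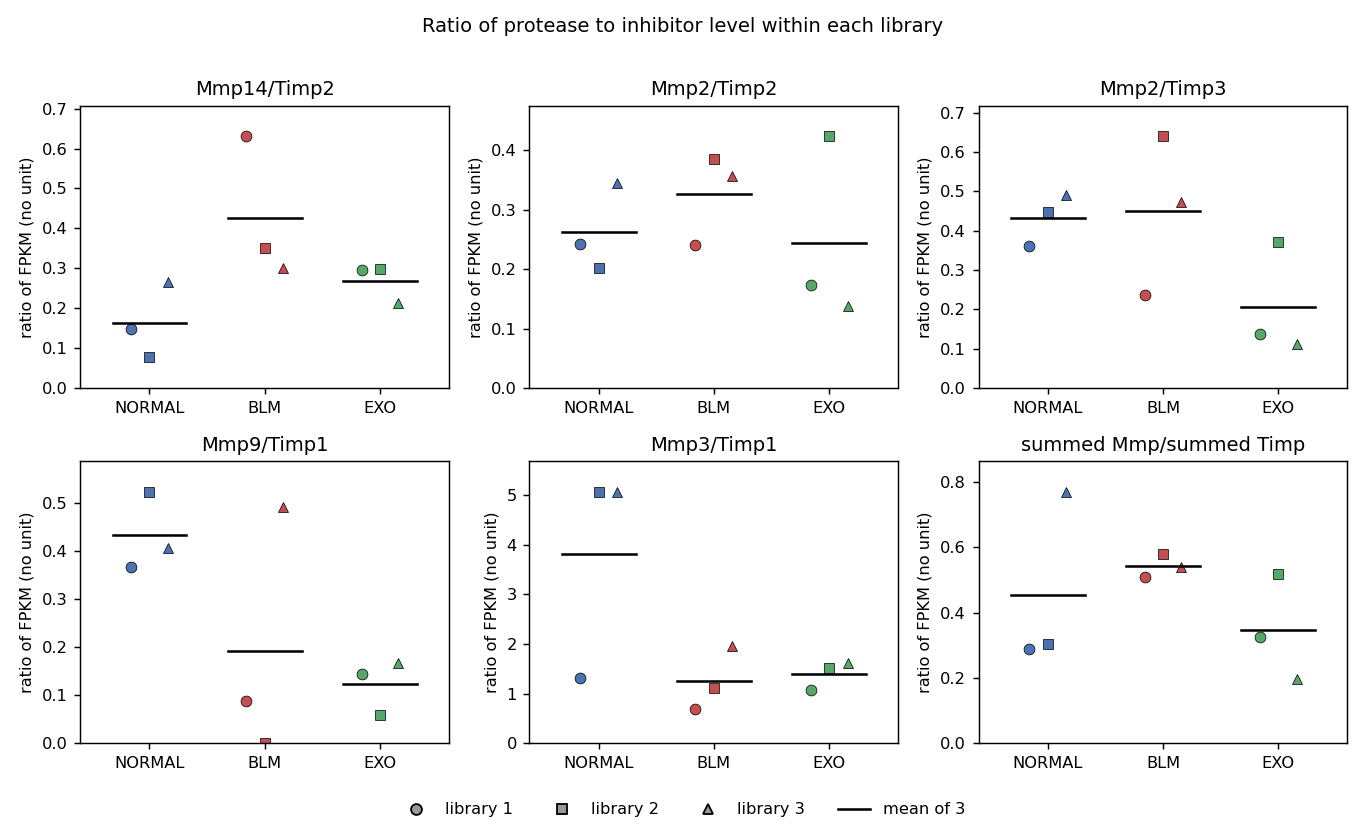
Ratio of FPKM within each library (vertical axis, no unit, each panel from 0) for 6 pairs of protease and inhibitor in NORMAL, BLM and EXO, with 1 point per library, shaped by library number, and a line at the mean of 3. In Mmp14/Timp2 the BLM points (0.300 to 0.631) lie above the NORMAL points (0.0774 to 0.266).

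The members did not move as 1 block across the libraries. Pearson's r of log2(FPKM + 1) over the 9 libraries ran from -0.32 to 0.86 over the 21 pairs of tested members, with a median of 0.48, and 19 were above 0. These values share the library totals and are given as descriptions. The closest pair was Mmp11 with Mmp14 (r = 0.86, rho = 0.88, and r = 0.91 without NORMAL3 and EXO1, the libraries farthest from the median of Mmp11). Mmp2 went with Mmp3 (r = 0.82, rho = 0.87, and r = 0.78 without NORMAL3 and BLM1) and Timp2 with Timp3 (r = 0.75, rho = 0.68, and r = 0.64 without the same libraries). Timp1 went against Timp2 (r = -0.32, rho = -0.48).

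Among all tested genes with a mean of at least 5 FPKM, the 3 nearest to each member by Pearson's r over the 9 libraries were sought, and as they were picked for their likeness no test is given. Those of Timp3 were Gsn, which encodes the actin-severing protein gelsolin, with r = 0.99, Vat1 with r = 0.98 and Nbl1, which encodes a BMP antagonist, with r = 0.98. Leaving out NORMAL3 and BLM2, they were at 0.99, 0.98 and 0.95. Timp2 was followed by Tgfbr2, a receptor of TGF-β (r = 0.94), Ostf1 (0.92) and Ythdf1 (0.90), which were at 0.91, 0.82 and 0.96 without NORMAL3 and BLM1. Timp1 was followed by the MHC class II genes H2-DMb1 (r = 0.89) and H2-Eb1 (0.87) and by Sparcl1 (0.85). Without NORMAL2 and EXO2 these fell to 0.63, 0.74 and 0.80. Nearest to Mmp11 were Ntn4, a netrin (r = 0.95), Mgp, which encodes matrix Gla protein (0.92), and Rhob (0.90). Without NORMAL3 and EXO1 they were at 0.88, 0.74 and 0.81. Among the nearest to Mmp14 were Frmd8 (0.96) and Cpne8 (0.95), at 0.89 and 0.85 without NORMAL2 and NORMAL3. Chp2 (r = 0.96), Selenop (0.95) and Vim (0.94) were nearest to Mmp3, and Dennd5a (0.91), C4b (0.91) and Cndp2 (0.90) to Mmp2. Those of Mmp3 were at 0.94, 0.92 and 0.87 without BLM1 and EXO2. Those of Mmp2 were at 0.74, 0.79 and 0.90 without NORMAL3 and BLM1.

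Other genes of matrix proteolysis were counted from lists of the gene families, and are to be read against the shares of all tested genes past the same thresholds, 2.88% higher for BLM against NORMAL, 3.03% higher for EXO against BLM and 1.32% higher for EXO against NORMAL. Of 17 other metalloproteinases, 4 were tested, and 1 passed the thresholds of the study, Mmp28, or epilysin, a protease of keratinocytes. It was at 0.69, 0.44 and 1.00 FPKM in BLM and 1.92, 2.18 and 7.45 FPKM in EXO, a log2 difference of 1.34 (SE 0.49; limma, unadjusted p = 0.0200, adjusted p = 0.612). Of 31 ADAM, ADAMTS and ADAMTS-like genes, 15 were tested. For BLM against NORMAL 1 was higher at the thresholds of the study and none lower, with a median log2 change of -0.22. For EXO against BLM 3 were higher and none lower, with a median of 0.33 beside 0.22 over all tested genes. The gene higher in BLM was Adam17, which sheds TNF from the cell surface and is a known target of TIMP3, at 0.25, 1.54 and 0.85 FPKM in NORMAL and 3.65, 1.76 and 5.06 FPKM in BLM (log2 difference 1.24, limma, adjusted p = 0.592). The 3 higher in EXO were the ADAMTS-like gene Adamtsl4 (log2 difference 1.53), Adamts14 (1.36), which trims procollagen, and Adam9 (1.10), with adjusted p from 0.453 to 0.590 (limma). For EXO against NORMAL 2 were higher, Adam17 (log2 difference 1.70, at 3.37, 4.44 and 7.47 FPKM in EXO) and Adamts14 (1.14), both with adjusted p = 0.997 (limma).

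Of 17 genes of the plasminogen system and other controls of metalloproteinases, 11 were tested. For BLM against NORMAL Cd44, a receptor that docks MMP9 at the cell surface, was higher (log2 difference 1.59) and Serpine2, which encodes protease nexin-1, was lower (-1.31), with adjusted p = 0.668 and 0.508 (limma). Cd44 was at 5.17, 5.48 and 31.31 FPKM in NORMAL, so NORMAL3 stood within the BLM range of 19.10 to 42.80 FPKM. For EXO against BLM Serpinb2, an inhibitor of plasminogen activators, was higher by 2.24 (limma, adjusted p = 0.258), at 38.63, 72.20 and 114.79 FPKM against 17.48, 9.98 and 14.62 FPKM. It was also the gene past these thresholds for EXO against NORMAL, by 1.46 (limma, adjusted p = 0.997). Of 10 cathepsins and other genes of collagen breakdown, 9 were tested and none passed these thresholds in any comparison, and the same held for the 7 tested of 14 inducers such as Fos and Jun. In the cathepsin list 1 gene had an unadjusted p below 0.05 for BLM against NORMAL (limma), and none of the inducers did in any comparison.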

How the data were processed

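RNA of mouse skin was sequenced from 3 groups of 3 libraries. Strand-marked libraries of polyadenylated RNA were made, and the FPKM values are those that the authors deposited, as a single table of 55382 genes. The submitters' processing notes name cutadapt, HISAT2 2.0.4, StringTie 1.3.4d and the build mm9. Annotation release, strandedness setting and filters were not given in the sources used here. Values are relative to the total of each library, so any abundant class of transcripts lowers all other values, and fragments of overlapping genes may be split between them. No counts were given, so limma 3.58.1, run in R 4.3.3 with its trend option, was fitted to log2(FPKM + 1) of the 14254 genes with at least 1 FPKM in at least 3 libraries, with all 9 libraries in 1 model. That scale understates the change of low genes. P-values were adjusted by Benjamini-Hochberg over all genes tested, and calls at the thresholds of the study were counted beside them.

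Coordinates are from GENCODE M21 (GRCm38), where 99.56% of gene identifiers were found, and not from mm9. Windows of 250 bases are from RefSeq. Depth was estimated from processed pseudogenes of 300 to 1500 nt at 0.05 to 1 FPKM. Protein sequences were not analysed here. Deviations from the group means were correlated between libraries. For the 9 pairs that share a number r ran from 0.173 to 0.679, and for the 18 others from -0.547 to 0.203. Deviations cancel within each group, so high values for the pairs that share a number lower the others. The main fit used group only. Pairing by number served the fits with a block and the counts of pairs with the same number. That pairing rests on these data alone, and number 3 was given to titles without a number. The counts of pairs were made for the members only, without the share over all tested genes. The method was tested on simulated data for BLM against NORMAL. Changes were added to a small part of the genes, all above a minimum mean level, with noise drawn independently for each gene. At an adjusted p below 0.05 (limma) it recovered 1.6% of log2 changes of 1, 37.2% of changes of 2 and 76% of changes of 3. The members and lists were chosen with earlier results of these data known. All members are named, with up to 4 genes of each list and contrast past the thresholds of the study and the 3 genes nearest to each member, except 1 gene that is not reported here. Python 3.11.15, pandas 2.3.3, numpy 2.4.6 and scipy 1.17.1 were used for tables and depth.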

Additional observations from a re-analysis of the deposited data

How the results depend on the processing

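In none of 22 alternative settings did a member pass an adjusted p of 0.05 (limma). Of 456 changes of single members under these settings, 413 kept their direction and their side of the thresholds of the study, 32 turned direction, 7 lost a call and 6 gained one, of which 2 (Mmp11 without NORMAL3) are also among those that turned. Many of the 413 could not turn. The estimate is the same by construction where only the filter, the variance model, the block or the libraries of the group not compared changed. With the replicate block no call at the thresholds of the study changed, and 1, 1 and 0 members passed the thresholds of the study for BLM against NORMAL, EXO against BLM and EXO against NORMAL, as without it. For BLM against NORMAL the count was 0 after quantile normalization and 0 without the libraries numbered 2, and 0 to 1 over single libraries left out. For EXO against BLM it was 0 without the libraries numbered 2 and 0 to 2 over single libraries left out. For EXO against NORMAL it was 0 to 3 over single libraries left out, the 3 being Mmp11, Mmp14 and Timp3 without NORMAL3, where 9.91% of all genes were past these thresholds in place of 1.71%. Over all genes the block raised the calls at an adjusted p of 0.05 from 2 to 60, from 2 to 11 and from 0 to 3 in the 3 comparisons. In the first 2 comparisons quantile normalization gave 58 and 36 such calls, median-ratio scaling 74 and 35, and the fit without NORMAL3 131 and 87. With only the 6 libraries compared there were 0 and 97. Rescaling put the median gene at -0.24 to -0.02, 0.01 to 0.46 and -0.03 to 0.20.

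These directions turned. For BLM against NORMAL, Mmp11 was at 0.17 with a pseudocount of 0.1, and Mmp14 at -0.015 after rescaling to the same total and -0.0048 without the libraries numbered 2. For EXO against BLM, Mmp2 was at -0.11, -0.12 and -0.31, and Mmp14 at -0.146, -0.152 and -0.18, after quantile normalization, median-ratio scaling and without the libraries numbered 2. Mmp3 was at -0.15 without those libraries, and Timp1 at -0.055 after median-ratio scaling and -0.22 without them. For EXO against NORMAL, Mmp3 was at -0.096, -0.14 and -0.53 under the same 3 settings, Mmp11 at 0.54 with a pseudocount of 0.1 and Mmp14 at -0.18 without the libraries numbered 2. The cause was not tested. Leaving out single libraries, for BLM against NORMAL Mmp3 ran from -0.77 to 0.12, Mmp11 from -1.50 to 1.08 and Mmp14 from -0.19 to 0.93. For EXO against BLM, Mmp2 ran from -0.32 to 0.50, Mmp3 from -0.32 to 0.84, Mmp11 from -0.13 to 0.55, Mmp14 from -0.082 to 0.22 and Timp1 from -0.41 to 0.70. For EXO against NORMAL, Mmp3 ran from -0.61 to 0.55, Mmp11 from -1.25 to 1.33 and Mmp14 from -0.087 to 1.03. Without BLM3 Timp2 also reached the thresholds of the study for EXO against BLM, at 1.03 (limma, unadjusted p = 0.0440).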
